A study of Mus musculus with 30 samples.

Results

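The NF-kappaB subunits and their feedback inhibitors were followed in 30 2-colour arrays of mouse embryonic fibroblasts (MEFs). They are 10 of the 21689 genes that the array names, measured by 13 of 33453 named probes and found by gene name, with no threshold on a measured value. They comprise the inhibitors Tnfaip3, Nfkbia, Nfkbib and Nfkbie, the subunits Nfkb1, Nfkb2, Rela and Relb, the nuclear cofactor Bcl3 and the adaptor Traf1.

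The study asked how stress changes gene expression and how much of the change needs the kinase p38α, which the gene Mapk14 encodes. All cells were immortalised MEFs, either wild type or p38α-/-, in 15 groups of 2 arrays, and the ages and sexes of the embryos were not given in the sources used here. Wild type cells received the cytokine TNFα at 100 ng/ml or the protein synthesis inhibitor anisomycin at 25 ng/ml, each for 45 min. Others received NaCl at 100 mM for 45 min, 2 h or 8 h. Each of these stresses was done without and with the p38 inhibitor SB203580, and a further wild type group had the inhibitor and no stress. The study states that this dose of anisomycin does not block protein synthesis fully. In the p38α-/- line, the groups were untreated cells, TNFα, anisomycin and NaCl for 2 h. The inhibitor was given at 10 μM for 30 min before the stress per the treatment protocol. The sample titles instead give 10 mM and 2 h for every SB203580 group, the one without stress and those with 8 h of NaCl included. In comparisons with SB203580 alone, the stress and the time with the inhibitor therefore cannot be told apart. Cy5 marked the sample on every array and Cy3 a shared pool, made from 2 cultures of untreated wild type cells, so each value below is a log2 ratio of Cy5 to Cy3, where 1 unit is a doubling. No dyes were swapped and no untreated wild type sample was hybridised in Cy5, so for a ratio to the pool the treatment and a dye offset of the probe cannot be told apart. Comparisons between groups of arrays are free of that offset. Per the study's methods the 2 arrays of a group hold RNA of independent experiments. In such bulk RNA, lower RNA per cell and fewer cells carrying it cannot be told apart.

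NF-kappaB is a family of dimeric transcription factors built from Rel proteins and from the processed products of Nfkb1 and Nfkb2. In resting cells IkappaB proteins such as the product of Nfkbia hold the dimers in the cytoplasm, and TNFα signalling leads to phosphorylation and loss of IkappaB. The freed factor then switches on its own inhibitors, Nfkbia and Tnfaip3 among them, which close the loop, and fibroblasts are a classic setting in which this loop has been studied.

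NF-kappaB binding sequences were searched in the promoters of the members, because several of these genes are known NF-kappaB targets. In RefSeq promoter sequences of build GRCm38.p6, 250 bases before to 50 bases after the start site, 5 of the 8 members in the table held at least 1 match to the 10-base NF-kappaB consensus, searched by name on both strands. The same match was found for 5.14% of all 27025 genes in the table, and in 4.51% of its 32851 single promoters. The windows below are written along the gene's strand with the match in capitals, 10 bases on each side, and show the 2 genes on which the results turn, with Nfkb2 as a gene that has matches but was not called higher with TNFα.
Tnfaip3, chr10:19015516-19015545, minus strand, match on the gene's strand: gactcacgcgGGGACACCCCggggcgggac
Tnfaip3, chr10:19015403-19015432, minus strand, match on the other strand: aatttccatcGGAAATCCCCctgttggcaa
Nfkbia, chr12:55492657-55492686, minus strand, match on the other strand: tgactggcttGGAAATTCCCcgcgcctgac
Nfkb2, chr19:46304688-46304717, plus strand, match on both strands: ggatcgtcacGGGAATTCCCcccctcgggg
In Tnfaip3 the matches lay at bases -125 to -116 and -12 to -3 from 1 of its 2 start sites in the table, and the promoter of the other held none. The match lay in Nfkbia at -29 to -20 and in Nfkb2 at -39 to -30, where another match on the other strand overlapped it, shifted by 1 base. Nfkb2, which has 3 start sites in the table, held matches at 3 other positions, and Nfkbie and Bcl3 held 1 match each. Nfkbib, Rela and Traf1 held none, which says only that these letters are not in the window.

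The targeted gene was checked first. The single Mapk14 probe lay below the pool on all 8 p38α-/- arrays, from -2.24 to -0.94, and above it on all 22 wild type arrays, from 0.03 to 1.31. All 8 fibroblast markers were well above background in Cy5 on all 30 arrays, but so were 7 of 7 leukocyte markers, 2 of 2 epithelial and 2 of 3 endothelial ones, so this detection call did not tell cell types apart. Between 6.78% and 44.8% of spots per array carried an outlier flag from the scanner software and were left out. Among the members this fell mostly on the brighter probes. Of 30 spots, 26 were flagged for Nfkbie and for Relb, 16 for Nfkbia, 15 for Nfkb2 and 10 for Bcl3, against 1 for Tnfaip3. Values are therefore given both without and with the flagged spots, and "with flagged spots" marks the second. No member's probe was below background on both arrays of any group or saturated on any array.

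Tnfaip3, which encodes the ubiquitin-editing inhibitor A20, had the largest ratio of all members with TNFα. With TNFα alone its log2 ratio to the pool was 5.69 and 4.98 on the 2 arrays, with SB203580 and TNFα 4.98 and 4.48, and in p38α-/- cells with TNFα 4.59 and 4.28. These 6 arrays stood above all the others, the next highest of which was 1.90. The mean of 5.34 ± 0.50 (SD, n = 2) was 40.4-fold over the pool (SE 0.24, adjusted p = 5.0e-10, limma). Without TNFα the gene lay between -0.25 and 1.90, above the pool on all but 1 array.

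**Figure D1:**
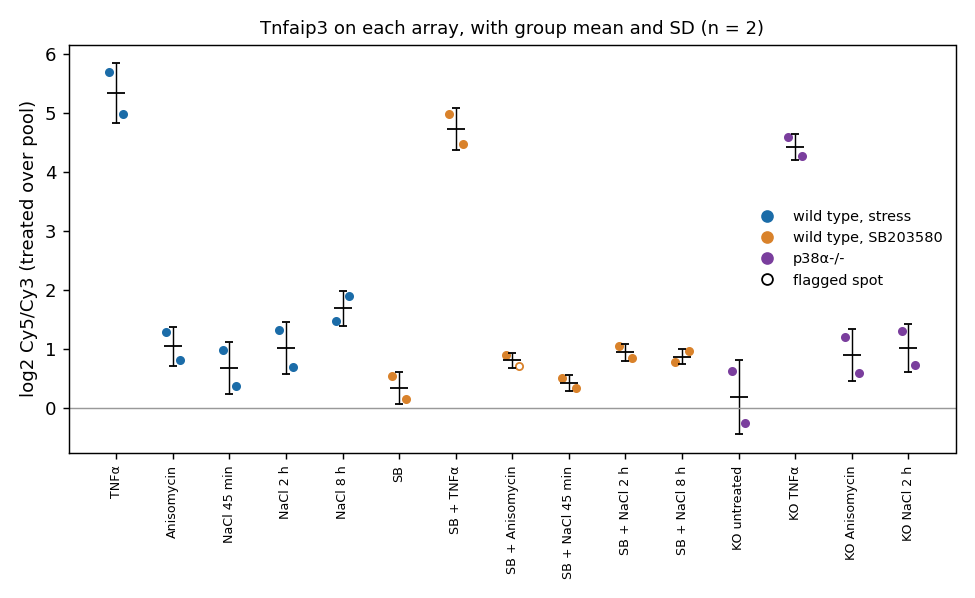
Log2 ratio of Tnfaip3 to the untreated wild type pool (y axis) in the 15 groups (x axis), with 1 point per array, black bars for the group mean and SD and an open point for a flagged spot. The 6 arrays with TNFα sit between 4.28 and 5.69, and the other 24 between -0.25 and 1.90.

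The other stresses gave Tnfaip3 smaller ratios. Anisomycin gave 1.29 and 0.81 (mean 1.05 ± 0.33 SD, n = 2, adjusted p = 0.0092, limma), and NaCl gave 0.99 and 0.37 at 45 min, 1.33 and 0.71 at 2 h and 1.48 and 1.90 at 8 h. Of the NaCl means, 0.68 ± 0.44 at 45 min did not pass (adjusted p = 0.080, limma), and 1.02 ± 0.44 at 2 h (adjusted p = 0.012) and 1.69 ± 0.30 at 8 h (adjusted p = 7.1e-05) did; each ± is an SD with n = 2. With the replicate number as a block, the 45 min value passed as well (adjusted p = 0.0077, limma), and so it did with flagged spots (adjusted p = 0.049). Without the first array of its own group, the anisomycin call was lost (0.81, adjusted p = 0.29, limma), and so was the 2 h NaCl call (0.71, adjusted p = 0.45). In order of mean, the group with SB203580 alone (0.35 ± 0.27 SD) and untreated p38α-/- cells (0.19 ± 0.63 SD) came lowest, and the ranges of 45 min NaCl and both of these unstressed groups overlapped. Set directly against anisomycin, TNFα gave a difference of 4.29 (95% interval 3.57 to 5.00, adjusted p = 4.9e-06, limma), and set against NaCl at 45 min one of 4.66 (3.94 to 5.37, adjusted p = 1.2e-06). The steps from 45 min to 2 h (0.34, -0.38 to 1.06) and from 2 h to 8 h (0.67, -0.05 to 1.38) of NaCl were not called. Against untreated p38α-/- cells, where the dye is the same, anisomycin gave 0.71 (-0.01 to 1.43) and NaCl at 2 h 0.83 (0.11 to 1.54). Against SB203580 alone, NaCl gave 0.08 at 45 min, 0.60 at 2 h (-0.12 to 1.31) and 0.53 at 8 h (-0.19 to 1.24). None of these 5 differences was called (limma).

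Nfkbia encodes IkappaBα, the inhibitor that is degraded and remade in each cycle of activation. It was above the pool by a clear margin only with TNFα. On the TNFα arrays its log2 ratio was 0.65 and 0.67, with SB203580 and TNFα 0.72 and 0.66, and in p38α-/- cells with TNFα 0.43 and 0.56, where the second value of each wild type pair is a flagged spot. No other array exceeded 0.26. With anisomycin it read -0.78 and -0.61, both flagged, and with NaCl -0.53 and -0.26 at 45 min, -0.06 and 0.06 at 2 h and -0.10 and 0.01 at 8 h, where the first of each pair is flagged. The unstressed arms lay low too, at -0.72 and -0.82 with SB203580 alone, both flagged, and at -0.63 and -0.57 in untreated p38α-/- cells.

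Nfkbia was then compared with the unstressed cells of its own arm, where the dye is the same. With flagged spots, TNFα raised Nfkbia by 1.46 log2 units over SB203580 alone (95% interval 1.14 to 1.78, adjusted p = 4.6e-05, limma) and by 1.1 over untreated p38α-/- cells (0.78 to 1.42, adjusted p = 0.0012). Without flagged spots only the second could be tested, on the same values, and it was not called (adjusted p = 0.16, limma). NaCl raised Nfkbia in the SB203580 arm at 2 h (0.90, adjusted p = 0.0021, limma) and at 8 h (0.57, adjusted p = 0.026), again with flagged spots. The matching difference in p38α-/- cells at 2 h, with flagged spots, was 0.61 (0.29 to 0.93, adjusted p = 0.063, limma). With flagged spots and the replicate block together, a setting chosen after seeing the data, it passed (adjusted p = 0.043). Without flagged spots, on the same values, it did not pass (adjusted p = 0.16, limma), nor with the replicate block added (adjusted p = 0.11). TNFα also exceeded anisomycin by 1.36 (adjusted p = 7.5e-05, limma) and NaCl at 45 min by 1.06 (adjusted p = 0.0016), with flagged spots.

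The other IkappaB genes moved little. Nfkbib, which encodes IkappaBβ, stayed between -0.15 and 0.56 over all 30 arrays. Its values at 8 h of NaCl were 0.32 and 0.56 without and 0.41 and 0.44 with SB203580, all above the pool. The mean of 0.44 ± 0.17 (SD, n = 2) at 8 h was called (adjusted p = 0.0055, limma), as was 0.35 ± 0.14 in untreated p38α-/- cells (adjusted p = 0.033). The first call was lost without the second array of its group (0.32, adjusted p = 0.18, limma), and the other without either of its arrays (adjusted p up to 0.49). Nfkbie, which encodes IkappaBε, ranged from -0.53 to 0.64. Its highest value was the first TNFα array, and the second, a flagged spot, was -0.06, so the pair spanned most other groups. Against its own arm, with flagged spots, TNFα gave Nfkbie 0.53 over SB203580 alone (0.15 to 0.92, adjusted p = 0.93, limma) and 0.50 over untreated p38α-/- cells (0.12 to 0.89, adjusted p = 0.95), and neither was called.

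**Figure D2:**
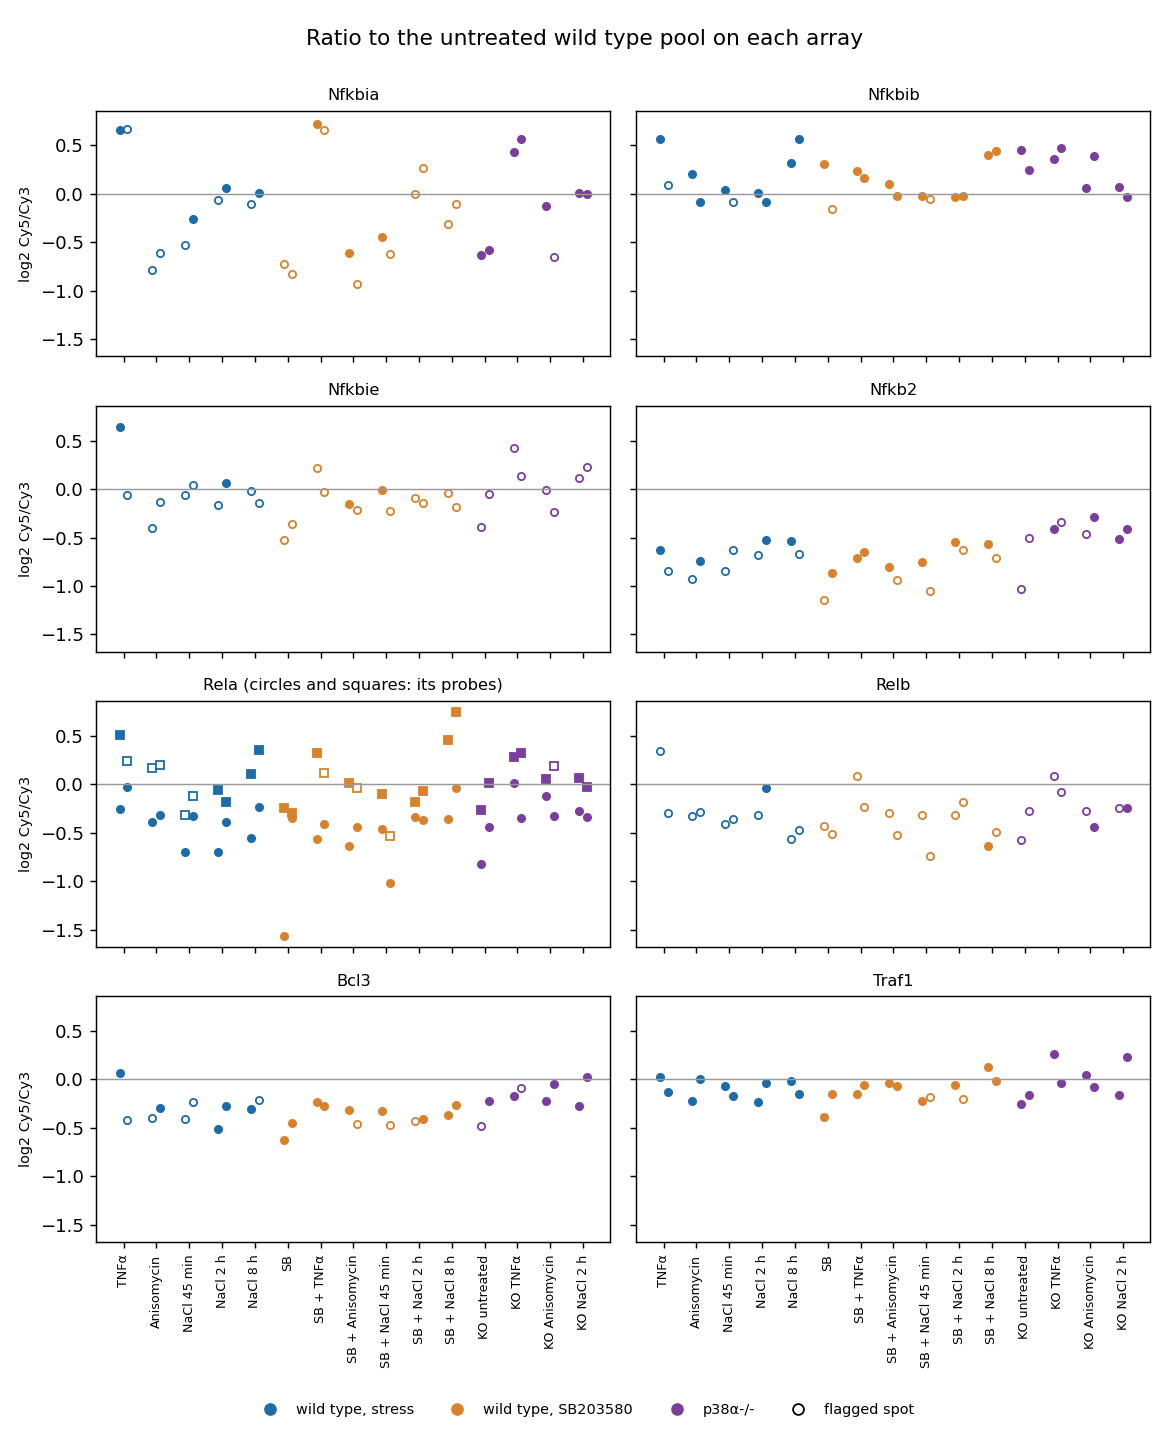
Log2 ratio to the untreated wild type pool (y axis) for 8 members in the 15 groups (x axis), with 1 point per array and probe, coloured by arm and open where the spot was flagged. Nfkbia is highest in the 3 TNFα groups, while Nfkb2 lies below the pool on all 30 arrays, from -1.14 to -0.29.

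Among the subunits, Nfkb1, which encodes p105 and its product p50, was the only one called higher with TNFα than the pool, at 1.42 and 0.82 (mean 1.12 ± 0.42 SD, n = 2, adjusted p = 0.00045, limma). Without the first TNFα array the mean was 0.82 and the call was lost (adjusted p = 0.060). Its 3 probes did not behave alike. Probe A_52_P32733, which the array design assigns to transcript AK036827, read 2.23 and 1.65 with TNFα, 1.23 and 0.83 with SB203580 and TNFα, and 1.54 and 0.87 in p38α-/- cells with TNFα, all above its highest value elsewhere, 0.36. Probe A_51_P283759, designed to NM_008689, lay between 0.18 and 1.00 on all 30 arrays, its TNFα values of 0.93 and 0.66 among them. Probe A_52_P569539, designed to AK048506, was dim and spread from -0.65 to 1.09, with 1.09 and 0.14 for TNFα. As a feature of its own, A_52_P32733 was higher with TNFα than with anisomycin by 1.94 (SE 0.27, adjusted p = 0.0015, limma) and than with NaCl at 45 min by 2.17 (SE 0.27, adjusted p = 0.00037). The same differences of the gene mean, 0.93 and 0.90, were not called (adjusted p = 0.28 and 0.21, limma) but passed with the replicate block (adjusted p = 0.011 for each).

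**Figure D3:**
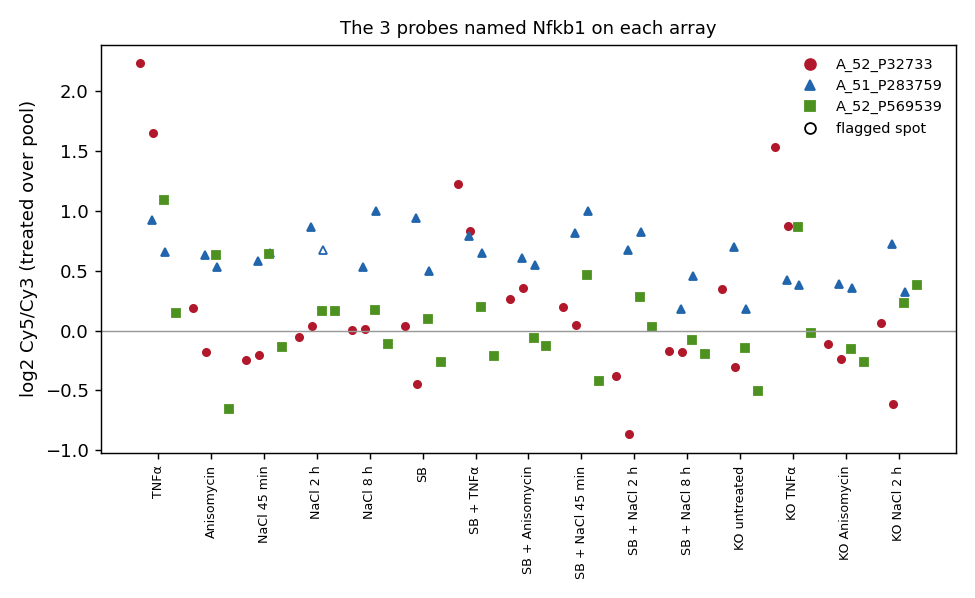
Log2 ratio to the untreated wild type pool (y axis) of the 3 probes named Nfkb1 in the 15 groups (x axis), with 1 point per array and an open point for a flagged spot. A_52_P32733 reaches 0.83 to 2.23 on the 6 TNFα arrays, while A_51_P283759 stays between 0.18 and 1.00 throughout.

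Nfkb2 encodes p100, the precursor of p52. It lay below the pool on all 30 arrays, from -1.14 to -0.29, unstressed cells included, with -0.63 and -0.85 for TNFα and -1.14 and -0.87 for SB203580 alone, of which -0.85 and -1.14 are flagged. Of all named probes, 9.58% lay below the pool on every array and 3.23% above it. Within the arms the TNFα groups read -0.71 and -0.64 with SB203580 and -0.41 and -0.34 in p38α-/- cells. The unstressed groups of these arms read -1.14 and -0.87 and, in p38α-/- cells, -1.03 and -0.51. Of the p38α-/- values, -0.34 and both unstressed ones are flagged. With flagged spots the differences were 0.33 (0.00 to 0.66, adjusted p = 0.93, limma) and 0.39 (0.07 to 0.72, adjusted p = 0.95), and neither was called.

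Rela encodes p65, the subunit that carries the main activating domain. Its 2 probes were offset from each other, A_52_P186119 running from -1.56 to 0.01 and A_51_P385993 from -0.53 to 0.74. The gene mean was called at 45 min of NaCl, with -0.70 and -0.33 (mean -0.52 ± 0.26 SD, n = 2, adjusted p = 0.043, limma), a call that was lost in 12 of the 30 fits that left out 1 array. These values come from A_52_P186119 alone, because both spots of the other probe were flagged, and with them the mean was -0.37 (adjusted p = 0.050). It was also called with SB203580 alone, with -0.91 and -0.32 (mean -0.62 ± 0.41 SD, adjusted p = 0.0080), where the first array of A_52_P186119 stood at -1.56 against -0.35 on the second; without that first array the mean was -0.32 and the call was lost (adjusted p = 0.44). NaCl for 8 h with SB203580, at 0.05 and 0.35, exceeded SB203580 alone by 0.81 (0.35 to 1.28, adjusted p = 0.027, limma). Without the first SB203580 array this was 0.52 and not called, whereas A_51_P385993 by itself gave 0.87 (SE 0.15, adjusted p = 0.0033).

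Relb and Bcl3 encode a subunit and a nuclear IkappaB-like cofactor that are themselves known NF-kappaB targets. Relb ranged from -0.74 to 0.34 and lay below the pool on 27 arrays. With TNFα it read 0.34 and -0.29, both flagged, so its replicates straddled 0. With flagged spots it was called lower than the pool at 45 min (-0.39, adjusted p = 0.042, limma) and 8 h of NaCl (-0.52, adjusted p = 0.0051). Bcl3 lay below the pool on 28 arrays, from -0.62 to 0.06, and read 0.06 and -0.42 with TNFα, the second flagged. The mean with SB203580 alone, from -0.62 and -0.45, was called (-0.54 ± 0.13 SD, n = 2, adjusted p = 0.0072, limma), but not without the first of these arrays (adjusted p = 0.19). Traf1, an adaptor at the TNF receptor and a known NF-kappaB target, stayed between -0.39 and 0.27, with 0.03 and -0.13 for TNFα. Its only call, with flagged spots, was with SB203580 alone (-0.27, adjusted p = 0.033, limma).

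Read as a list, the members passed the limma test at an adjusted p under 0.05 as follows. Against the pool, TNFα had 2 of 4 measurable members called, both higher, where 10.8% of all 15365 genes tested were called. With flagged spots it had 4 of 10, against a background of 22.2%, namely Tnfaip3, Nfkbia and Nfkb1 higher and Nfkb2 lower. Anisomycin had 1 of 5 (background 11.9%) and with flagged spots 4 of 10 (24.7%), where Nfkbia, Nfkb2 and Bcl3 were lower. NaCl had 1 of 4 at 45 min (background 9.8%), 1 of 6 at 2 h (9.93%) and 2 of 5 at 8 h (22.2%). With flagged spots these became 6 of 10 (background 18.9%), 3 of 10 (19.6%) and 4 of 10 (25.9%). The members' median against the pool with TNFα was 0.58 over the 4 measurable members and 0.20 over all 10 with flagged spots, beside medians over all genes of 0.00 and -0.06.

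The 2 unstressed groups had calls as well. With SB203580 alone 2 of 5 members were called, Rela and Bcl3, both lower (background 26.5%), and with flagged spots 7 of 10, all lower (background 41.3%). In untreated p38α-/- cells 2 of 6 were called, Nfkbia lower and Nfkbib higher (background 14.9%), and with flagged spots 6 of 10, 5 of them lower (background 25.7%). For the members that lay below the pool in these unstressed groups, a change of the arm and a dye offset cannot be told apart.

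Within each arm, few members were called. For TNFα against untreated p38α-/- cells, 1 of 6 members was called, Tnfaip3, by 4.24 (95% interval 3.52 to 4.95, adjusted p = 5.6e-06, limma), where 0.0781% of genes were. With SB203580, 1 of 5 was called for TNFα, again Tnfaip3, by 4.38 (3.66 to 5.09, adjusted p = 3.5e-06), where 0.0984% of genes were. With flagged spots Nfkbia joined it in both arms, making 2 of 10 each (backgrounds 0.111% and 0.138%). All 10 members then had positive differences in both arms, with 8 in p38α-/- cells and 6 with SB203580 at an unadjusted p under 0.05. Over all genes 54.9% and 59.6% of the differences were positive, and 3.44% and 4.21% had such a p. The members' medians were 0.44 and 0.42, beside 0.02 and 0.05 over all genes. The other stresses ran positive against the same unstressed groups, with member medians of 0.20 for anisomycin and 0.24 for NaCl at 2 h in p38α-/- cells. With SB203580 they were 0.14 for anisomycin and 0.10, 0.27 and 0.34 for NaCl at 45 min, 2 h and 8 h, and 8 or 9 of the 10 members were positive in each of these 6 comparisons. Over the 3 stresses in p38α-/- cells together, 1 of 17 member tests passed (background 0.445%), and with flagged spots 2 of 30 (0.478%). Over the 5 stresses with SB203580, 2 of 19 passed (background 2.19%), Tnfaip3 with TNFα and Rela with NaCl at 8 h, and with flagged spots 5 of 50 (2.26%), all higher. Comparing TNFα with anisomycin and with NaCl at 45 min, 2 of 8 passed (background 0.204%), both Tnfaip3, and with flagged spots 4 of 20 (0.231%), where Nfkbia was added.

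**Figure D4:**
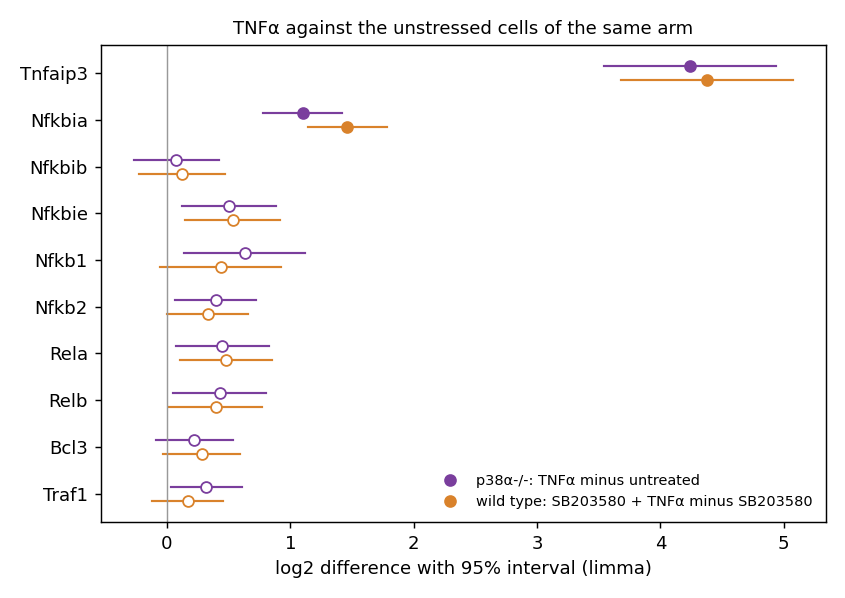
Log2 difference of TNFα from the unstressed cells of the same arm (x axis) for the 10 members (y axis), flagged spots included, with 95% limma intervals. Filled points passed at an adjusted p under 0.05, and they are Tnfaip3 and Nfkbia in both arms.

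The 2 arms were then set against wild type cells under the same stress, the comparison that asks for a share of p38α. No member was called between p38α-/- and wild type cells in 15 tests (background 0.828%; 1 had an unadjusted p under 0.05) or in 30 with flagged spots (background 1.06%; 3 unadjusted). Nor was any called between stress with and without SB203580, in 20 tests (background 0.0493%; 2 unadjusted) or in 50 with flagged spots (background 0.0498%; 2 unadjusted). Wild type and p38α-/- arrays shared only scan batch 2, so genotype and scan batch are partly confounded here. The Tnfaip3 value with TNFα was lower than wild type by 0.91 in p38α-/- cells (-1.62 to -0.19, adjusted p = 0.46, limma). The lowest wild type value was 4.98 and the highest of p38α-/- was 4.59, and the difference was not called. With SB203580 the difference was -0.61 (-1.33 to 0.11, adjusted p = 1.0). By replicate number both arrays were lower with SB203580, at 4.98 against 5.69 and at 4.48 against 4.98. With the replicate block the interval was -1.085 to -0.135 (unadjusted p = 0.015, limma), and the difference was still not called. On the linear scale the 21.6-fold mean in p38α-/- cells and the 26.5-fold mean with SB203580 were 53.3% and 65.5% of the 40.4-fold mean in wild type. The knockout difference did not pass with the replicate block alone (adjusted p = 0.058, limma). It passed only with flagged spots and the replicate block together, a setting chosen after seeing the data (adjusted p = 0.044). At 8 h of NaCl, Tnfaip3 read 0.78 and 0.97 with SB203580 against 1.48 and 1.90 without. The difference of -0.82 (-1.53 to -0.10) was not called (adjusted p = 0.83, limma). For Nfkbia with TNFα, with flagged spots, the difference from wild type was -0.17 in p38α-/- cells (-0.49 to 0.16, adjusted p = 0.77, limma) and 0.02 with SB203580 (-0.30 to 0.35, adjusted p = 1.0).

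The change under stress was also compared between arms, as the stressed minus the unstressed group of the arm, less the wild type ratio to the pool. In this contrast a dye offset does not cancel, because wild type cells have no unstressed array. No member was called, in 14 tests for p38α-/- cells (background 0.355%; 2 unadjusted) and 17 for SB203580 (background 0.671%; 7 unadjusted). The Tnfaip3 value was -1.10 with TNFα in p38α-/- cells (-1.97 to -0.22), -0.96 with SB203580 and TNFα (-1.84 to -0.08), and -1.17 with SB203580 and 8 h of NaCl (-2.04 to -0.29, adjusted p = 0.18, limma), which passed with the replicate block (adjusted p = 0.035). With flagged spots 4 of 30 (background 6.16%) and 9 of 50 (background 6.13%) were called, all higher. Of these, 7 were Nfkb2, which lay below the pool on every array, and the rest were Nfkbia and Rela. Finally, no member was called between NaCl times, in 9 tests (background 4.26%; 1 unadjusted) or in 20 with flagged spots (background 4.21%; 2 unadjusted), the nearest being Nfkbib from 2 h to 8 h (0.48, 0.17 to 0.78, adjusted p = 0.056, limma).

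The rest of the pathway was counted over 55 further genes, of which 54 were on the array. With TNFα 9 of 32 measurable genes were called higher and 1 lower than the pool, and 6 of the 9 were among 10 measurable target genes. With flagged spots 18 of 54 were higher and 9 lower, where 22.2% of all genes were called and 40.7% lay above the pool. The chemokine genes Ccl20 (7.18 and 6.96) and Cxcl10 (6.94 and 6.34) had larger ratios than Tnfaip3 did. The growth factor gene Csf1 read 3.37 and 2.67, the adhesion gene Vcam1 2.78 and 0.75, the stress gene Gadd45b 1.90 and 1.54, and the ubiquitin ligase gene Birc2 0.93 and 0.35. The gap between the Vcam1 arrays depended on the flags. Its mean was 1.77 (SE 0.31) without and 2.54 (SE 0.19) with flagged spots. Against the unstressed cells of the same arm, Ccl20, Cxcl10 and Gadd45b were called higher with TNFα in both arms. Vcam1 was called there only with flagged spots, and Csf1 was not called (2.77 with SB203580, 1.68 in p38α-/- cells). Birc2 differed by 0.002 with SB203580 and by 0.38 in p38α-/- cells. The receptor gene Il1r1, 1 of the 9, differed by 0.02 and -0.22, and neither gene was called. With anisomycin 6 of 34 were called higher and 1 lower than the pool. With NaCl 3 of 25, 5 of 42 and 6 of 37 were higher at 45 min, 2 h and 8 h, with 0, 1 and 1 lower. These shares stand beside the backgrounds of 11.9%, 9.8%, 9.93% and 22.2% of all genes, and with TNFα beside 10.8%. With flagged spots 7 of the 54 genes were higher and 10 lower with anisomycin, and 5 higher and 9 lower at 45 min of NaCl. The counts were 7 and 5 at 2 h and 9 and 8 at 8 h. In this order, the backgrounds with flagged spots were 24.7%, 18.9%, 19.6% and 25.9%. Of all genes, 39.9%, 40.5%, 44.6% and 44.1% then lay above the pool. Nfkbiz, which encodes a further nuclear IkappaB protein, was called with anisomycin (1.43 and 1.30) and at every NaCl time (0.99 and 0.67, 1.42 and 0.82, 0.90 and 1.58). With TNFα it read 3.40 and 3.43 with a flagged spot. Gadd45b was called with anisomycin (1.00 and 0.92) and NaCl at 45 min (0.90 and 0.95) and 2 h (1.72 and 1.43). Cxcl10 was called with anisomycin (2.71 and 1.79) and NaCl at 2 h (1.95 and 0.87). The Cxcl10 mean was 0.67 or more over the pool in every group without TNFα, both unstressed groups included. Its calls here therefore do not by themselves show a change with stress. At 8 h of NaCl, Ccl20 (2.41 and 2.87), the early response gene Ier3 (1.37 and 1.72) and Ccl2 (1.18 and 1.04) were called too, and the kinase subunit gene Ikbkg was lower (-1.04 and -0.55). The median of the measurable list with TNFα was 0.10, beside 0.00 over all genes.

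By pattern over the 15 group means, the genes most like Tnfaip3 among 273 that spanned at least 2 log2 units and were measured on all arrays were Olfr1015 (Pearson r = 0.98), Ccl20 (0.98), Cxcl10 (0.96), Sele (0.95) and Vcam1 (0.94). Vcam1 means were 1.77, 1.97 and 1.93 in the 3 TNFα groups and at most 0.18 elsewhere. With flagged spots its means in the TNFα groups were 2.54, 2.11 and 2.21. For Nfkbia, with flagged spots and 393 candidates, they were Olfr1015 (0.91), Tnfaip3 (0.86), Ccl2 (0.86), Ccl7 (0.83) and Ccl20 (0.82). These correlations are descriptions over groups that share the same pool and among which the 3 TNFα groups stand apart.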

How the data were processed

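Total RNA was measured on 30 Agilent 44K arrays, each with a treated sample in Cy5 and the untreated wild type pool in Cy3. Spots were read by the authors' Agilent software, Feature Extraction, whose release is 8.1.1.1 per the file headers but 9.1 per the submitters' processing notes. The deposited intensities had been dye-normalized by that software, and the deposited log10 ratios are its ratio of Cy5 to Cy3. The authors also deposited log2 ratios in a series matrix, used as an alternative; its column medians ran from -0.06 to 0.03, and its scale was judged from its values. Their centring is not stated.

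Log10 ratios were turned into log2 ratios. Control spots and spots with a feature outlier flag in either channel were left out, then spots were averaged per probe and probes per gene name. Python 3.11.15 (numpy 2.4.6, pandas 2.3.3, matplotlib 3.10.9) and R 4.3.3 were used. With limma 3.58.1, 15 group means were fitted to all arrays with empirical Bayes, contrasts were tested, and p-values were adjusted by Benjamini-Hochberg over all genes measured on both arrays of every group compared. A gene was called at an adjusted p under 0.05. The fit was tested on simulated data. Arrays give no counts, and their number limits precision. The members, the 55 pathway genes and the cell type markers were chosen with earlier results of these data known. Genes named were the 10 members, Mapk14, up to 6 called pathway genes with the largest change per wild type stress, and the 5 genes most like Tnfaip3 and Nfkbia. Lists and promoter matches were described without a test.

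To see whether replicate numbers pair the arrays, array 1 minus array 2 of each group was correlated with that of each other group over 10458 genes. The coefficient exceeded 0.1 for 55 of 55 wild type pairings and 6 of 6 p38α-/- ones, against 3 of 44 across genotypes, so the numbers pair arrays within a genotype. They also follow the 4 scan batches. Alternatives were normexp with loess, the series matrix, other handling of flags, probes, dim spots and brightness, a replicate block, a scan batch term, fewer arrays, the 2.5-fold threshold of the study's methods, and leaving out single arrays, where the remaining one takes its spread from the other groups.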

Additional observations from a re-analysis of the deposited data

How the results depend on the processing

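The 7 calls of Tnfaip3 with TNFα, against the pool in the 3 arms, the unstressed cells of both arms, anisomycin and NaCl at 45 min, and its call at 8 h of NaCl held in every alternative that was fitted, with no change of sign for any called value. They are 8 of 30 called member differences. The other counts of called members moved, and the cause was not tested. Leaving out arrays was done without flagged spots, so the Nfkbia calls that need those spots were not put to it. With 2 arrays a group, the number of arrays limits precision. Scan batch and replicate number follow each other in wild type cells, where the 2 cannot be told apart. Wild type arrays were in scan batches 1 and 2 and p38α-/- arrays in 2, 3 and 4, so genotype is partly confounded with batch. The second p38α-/- array with TNFα was alone in batch 4, while the second untreated one was in batch 3.

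The counts below are not shares, because the members tested and the share of all genes called differ between settings. With TNFα against the pool the background was 10.8% without flagged spots and 22.2% with them. For the difference of induction with SB203580 it was 0.671% beside 17 member tests, and 6.13% beside 50. For the other settings this share was not counted. Flagged spots kept gave 4 called members with TNFα, 4 with anisomycin, 6, 3 and 4 with NaCl at 45 min, 2 h and 8 h, 7 with SB203580 alone and 6 in untreated p38α-/- cells, all against the pool. It gave 2 within the p38α-/- arm, 5 within the SB203580 arm, 4 and 9 for the differences of induction and 4 for TNFα against the other stresses. The authors' series matrix gave, in the same order, 6, 3, 3, 4, 4, 5, 4, 2, 5, 5, 11 and 4, and 1 between NaCl times. Normexp with loess gave 2 for NaCl at 2 h, 2 within the p38α-/- arm and 1 between NaCl times. Leaving out background outliers gave 1 in untreated p38α-/- cells. The brightest probe of each gene gave 2 with anisomycin, 2 with NaCl at 2 h, 1 difference of induction with SB203580 and 1 between NaCl times. Well measured spots only gave 2 with NaCl at 2 h, 1 with SB203580 alone and 1 within its arm. The replicate block gave 2 with NaCl at 45 min, 2 at 2 h, 1 difference of induction with SB203580 and 4 for TNFα against the other stresses, and moved no other count by over 1.5 times. A scan batch term gave 4 for TNFα against the other stresses, wild type arrays alone gave 0 with NaCl at 45 min, and an intensity trend gave 2 with NaCl at 2 h and 1 between NaCl times. Single probes gave 2 with anisomycin, 2 with NaCl at 2 h, 4 in untreated p38α-/- cells, 1 difference of induction with SB203580 and 4 for TNFα against the other stresses. A 2.5-fold threshold on the mean in place of the adjusted p gave 1 with TNFα, 0 with anisomycin, 0, 0 and 1 with NaCl at the 3 times, 0 with SB203580 alone, 0 in untreated p38α-/- cells and 1 within the SB203580 arm.

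A pair of settings was chosen after seeing the data. The replicate block with flagged spots gave, in the first order above, 5, 4, 6, 4, 5, 7, 6, 3, 5, 7, 15 and 6, and 1 between p38α-/- and wild type cells. Single probes with flagged spots gave 5, 5, 6, 4, 5, 8, 7, 2, 5, 5, 11 and 6. Leaving out each array in turn gave 1 to 2 calls with TNFα, 0 to 1 with anisomycin, 0 to 1, 0 to 2 and 1 to 2 with NaCl at 45 min, 2 h and 8 h, 0 to 3 with SB203580 alone and 0 to 2 in untreated p38α-/- cells. It gave 1 to 1 within the p38α-/- arm, 1 to 2 within the SB203580 arm, 0 to 0 between each arm and wild type, 0 to 0 and 0 to 2 for the differences of induction, 2 to 2 for TNFα against the other stresses and 0 to 1 between NaCl times.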
